A study of Homo sapiens with 6 samples.

Results

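MicroRNAs are made in steps. In the nucleus, DROSHA, an RNase III enzyme, and its double-stranded RNA-binding partner DGCR8 form the Microprocessor, which cuts a hairpin out of a primary transcript. XPO5 carries the hairpin to the cytoplasm, where DICER1, a second RNase III enzyme, trims it to a duplex with help from the double-stranded RNA-binding proteins TARBP2 and PRKRA. One strand is then held by an Argonaute protein (AGO1, AGO2, AGO3 or AGO4), which finds target mRNAs, and AGO2 is the Argonaute best known for slicing them. Short hairpin RNAs expressed from vectors, such as the one used in this study, skip the Microprocessor and enter the same route at the export step. These 10 genes were chosen by symbol, as the microRNA and hairpin processing and Argonaute genes, and all 10 were found among the 23754 features of the count table.

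The cells were IMR-90, fibroblasts cultured from human fetal lung. Those stably carrying the sh-2 hairpin against ZNF469 in the doxycycline-inducible Tet-pLKO-puro vector, selected with 0.5 µg/mL puromycin, received 2 µg/mL doxycycline for 4 days (DOX+, 3 libraries). The same line without doxycycline was the control (DOX-, 3 libraries), although the submitted genotype label calls these cells wild-type, and both groups carry the vector. Poly(A) RNA was read as pairs of 150 bp, and the submitters describe the libraries as technical replicates, so p-values measure only the spread between these libraries. Every DOX+ library had both doxycycline and an induced hairpin, so the effects of ZNF469 loss, of doxycycline and of expressing a hairpin cannot be told apart for genes that themselves handle hairpins. In bulk RNA, fewer cells of a type and less RNA per cell cannot be told apart either.

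Libraries held 34057675 to 36120260 counts. ZNF469, the target of the hairpin, was at 118, 112 and 126 CPM (counts scaled to library size by the TMM method) in DOX- libraries and at 80.4, 80.4 and 79.6 CPM in DOX+ libraries, or 67.5% of the DOX- level (log2 fold change −0.57, edgeR adjusted p = 3.31e-05). All 9 fibroblast markers examined were detected, from 86.9 to 107 CPM for LUM up to 9290 to 15800 CPM for COL1A1, and 5 of them (COL1A1, COL1A2, COL3A1, DCN and LUM) were called lower by edgeR's test. DCN was not called without DOX- replicate 1 (edgeR adjusted p = 0.0529), and LUM, at an edgeR adjusted p of 0.0499, remained called only without DOX+ replicate 2 among the fits that left out 1 library, with adjusted p-values up to 0.205. Of 12 epithelial, endothelial and leukocyte markers, 6 were at 0 counts in every library. CD68, a lysosomal gene that is not limited to leukocytes, was at 58.8 to 66.7 CPM, and the other 5 reached at most 0.856 CPM. On the first principal component, which held 23.9% of the variance, DOX+ replicate 2 scored 32.8 and the other libraries −12.6 to 0.524.

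None of the 10 genes passed the test between DOX+ and DOX- cells, and for 9 of them the 95% interval of the log2 fold change lay within 0.25 of 0. AGO2, at 90.9% of its DOX- level, and AGO4, at 117%, stood farthest from no change. At an adjusted p under 0.05 over the 13991 features that passed the filter on low counts, 0 of the 10 were called by edgeR's quasi-likelihood test, against 1.12% of all features, and limma-voom called 0 as well, as did DESeq2 among the 8 it gave an adjusted p. All 10 passed the filter, with 410 to 2515 counts in any library. Their adjusted p-values ran from 0.142 to 0.905 by edgeR's test. At an unadjusted p under 0.05, edgeR's test picked 2 of the 10, AGO2 and AGO4, where it picked 15.0% of all features. The same 2 genes were those whose DOX+ and DOX- libraries did not overlap, which held for 20.3% of all features. With 3 genes higher and 7 lower, the median log2 fold change of the 10 was −0.033, and that of all features tested was −0.002. The summed level of the 10 genes was 415.6, 421.3 and 404.9 CPM in DOX- libraries and 403.2, 412.8 and 406.5 CPM in DOX+ libraries, and the groups overlapped (two-sided exact permutation p = 0.3, where 3 libraries against 3 cannot go below 0.1).

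**Figure D1:**
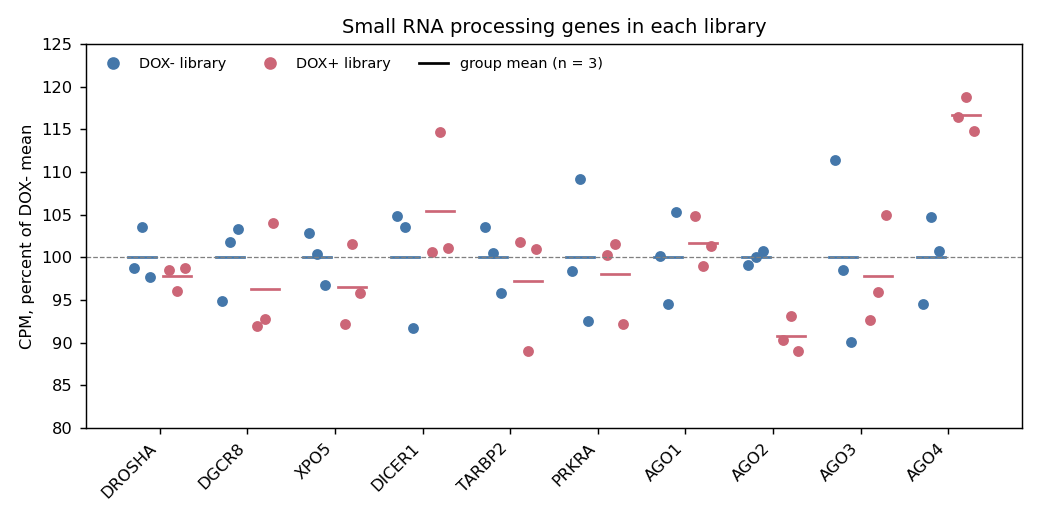
CPM of each gene in each library, as a percentage of that gene's DOX- mean; points are libraries and short bars are group means (n = 3 per group). AGO2 and AGO4 are the genes whose DOX+ and DOX- points do not overlap, and the y axis does not start at 0.

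Within the Microprocessor, DROSHA was the steadier gene. It was counted at 62.5, 65.5 and 61.8 CPM in DOX- libraries and at 62.3, 60.8 and 62.5 CPM in DOX+ libraries. DOX+ cells held 97.8% of the DOX- level, with a 95% interval of 91.7% to 104% (log2 fold change −0.032, edgeR adjusted p = 0.779). DGCR8 was at 41.5, 44.5 and 45.2 CPM without doxycycline and at 40.2, 40.6 and 45.5 CPM with it. The highest and the lowest of these 6 values were both from DOX+ libraries. Its DOX+ level was 96.3% of the DOX- level (88.1% to 105%, edgeR adjusted p = 0.716). For both genes the groups overlapped.

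DGCR8 mRNA is itself known as a substrate of the Microprocessor, because its exon 2 holds hairpins. In RefSeq (GRCh38.p14), mature microRNAs lie on the DGCR8 strand of chromosome 22 in this exon, one outside the coding sequence and a pair of arms inside it. They are printed because they mark where the enzyme meets its own partner's transcript, with the seed (bases 2 to 8) in capitals.
hsa-miR-3618: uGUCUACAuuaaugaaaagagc
hsa-miR-1306-5p: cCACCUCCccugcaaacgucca
hsa-miR-1306-3p: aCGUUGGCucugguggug
The first lies at chr22:20085797-20085818 and the last ends at chr22:20086129, and the 3 seeds differ from each other. Counts on poly(A) RNA do not measure the mature microRNAs. The balance of both Microprocessor genes can be read within each library, free of scaling between libraries. The log2 ratio of DROSHA to DGCR8, in the deposited FPKM (fragments per kilobase of transcript, scaled to sequencing depth), was 0.52, 0.38 and 0.40 in DOX- libraries and 0.47, 0.43 and 0.37 in DOX+ libraries. These correspond to 1.35 and 1.34 times as much DROSHA as DGCR8, and the groups overlapped (two-sided exact permutation p = 0.8). By counts per kb of canonical transcript the ratios were 1.2 and 1.22, so their size depends on the length used.

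XPO5, the export receptor of precursor hairpins, was at 42.3, 41.3 and 39.8 CPM in DOX- libraries and at 37.9, 41.8 and 39.4 CPM in DOX+ libraries. DOX+ cells held 96.6% of the DOX- level (89.1% to 105%, edgeR adjusted p = 0.709). The lowest library was DOX+ replicate 1, and the other DOX+ values lay within 1 CPM of the DOX- range.

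DICER1 was at 64.8, 64.0 and 56.7 CPM in DOX- libraries and at 62.2, 70.9 and 62.5 CPM in DOX+ libraries. The highest value came from DOX+ replicate 2, the library that the first principal component set apart. The log2 fold change of DICER1 was 0.077 (95% interval −0.059 to 0.21, edgeR adjusted p = 0.609), and without that library it was 0.013. A microRNA hairpin, MIR3173, lies in an intron of DICER1 on the same strand of chromosome 14, and its mature arms in RefSeq are given with the seed in capitals.
hsa-miR-3173-5p: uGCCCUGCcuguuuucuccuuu
hsa-miR-3173-3p: aAAGGAGGaaauaggcaggcca
Among the RefSeq entries used, 0 hairpins lay within the bounds of the other 8 genes. These entries are not complete: in DGCR8 they held both miR-1306 arms but only MIR3618 as a hairpin. Hairpins in the other genes could therefore be missing from them.

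TARBP2, which binds double-stranded RNA and helps Dicer select and cut its substrate, was at 24.2, 23.5 and 22.4 CPM in DOX- libraries and at 23.8, 20.8 and 23.6 CPM in DOX+ libraries. The DOX+ level was 97.4% of the DOX- level (87.5% to 108%, edgeR adjusted p = 0.852). DOX+ replicate 2 was the lowest library here, the same library in which DICER1 was highest. PRKRA, also known as an activator of the kinase PKR, was at 40.2, 44.6 and 37.8 CPM without doxycycline and at 41.0, 41.5 and 37.7 CPM with it, or 98.0% (88.9% to 108%, edgeR adjusted p = 0.879). Relative to its partners, DICER1 was at log2 FPKM ratios of −1.15, −1.12 and −1.31 to TARBP2 in DOX- libraries and −1.23, −0.77 and −1.11 in DOX+ libraries (two-sided exact permutation p = 0.4). The log2 ratio of DICER1 to PRKRA ran from −1.97 to −1.77 and from −1.91 to −1.73 (exact permutation p = 0.5). Counts of PRKRA carry an uncertainty of their own. In GENCODE 44, 44.5% of the 100-base stretches of its canonical transcript also occur in transcripts of other genes, all of them in the noncoding gene CHROMR, which leaves reads of both genes hard to assign. The share was at most 7.85% for any of the other 9 genes.

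**Figure D2:**
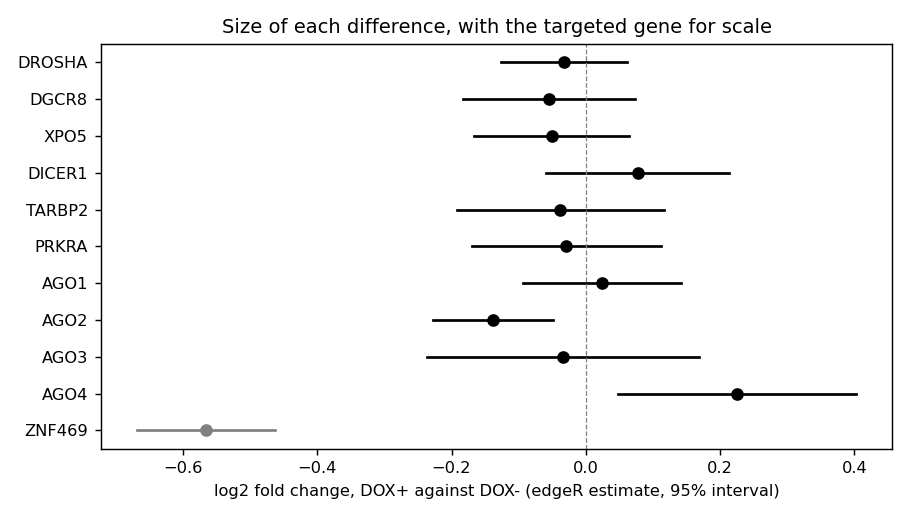
Log2 fold change of DOX+ against DOX- libraries for the 10 genes and, in grey, ZNF469; points are edgeR estimates and lines are 95% intervals (3 libraries per group). The intervals of AGO2 and AGO4 leave out 0, and every member's interval lies within −0.24 to 0.40.

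Of the 4 Argonautes, 2 had groups that did not overlap, as had 20.3% of all features. AGO2, the Argonaute best known for slicing targets, was at 69.9, 70.6 and 71.1 CPM in DOX- libraries and at 63.7, 65.7 and 62.8 CPM in DOX+ libraries. All 3 DOX+ values lay under the lowest DOX- value, and the DOX- libraries spanned little more than 1 CPM. The DOX+ level was 90.9% of the DOX- level (85.5% to 96.7%), a log2 fold change of −0.14 with a standard error of 0.0412 (edgeR adjusted p = 0.142, exact permutation p = 0.1, the smallest possible here). AGO2 was the one member that any alternative keeping an FDR of 0.05 called: once the trend of each library's counts on transcript length was removed, its log2 fold change was −0.19 (edgeR adjusted p = 0.0367). The canonical AGO2 transcript is 14.6 kb long, of which 17.7% is coding.

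AGO4 was at 12.1, 13.4 and 12.9 CPM in DOX- libraries and at 14.9, 15.2 and 14.7 CPM in DOX+ libraries. Here each DOX+ library was above each DOX- library. The DOX+ level was 117% of the DOX- level (103% to 132%), a log2 fold change of 0.23 with a standard error of 0.0822 (edgeR adjusted p = 0.218, two-sided exact permutation p = 0.1). Its counts, 410 to 540 per library, were with those of AGO3 the lowest of the 10 genes, and its adjusted p stayed between 0.171 and 0.429 over the alternatives that gave one. DESeq2 gave neither AGO4 nor AGO3 an adjusted p.

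AGO1 and AGO3 showed no such separation. AGO1 was at 41.1, 38.8 and 43.2 CPM in DOX- libraries and at 43.0, 40.6 and 41.6 CPM in DOX+ libraries, or 102% of the DOX- level (93.8% to 110%, edgeR adjusted p = 0.882). AGO3, at 17.2, 15.2 and 13.9 CPM against 14.3, 14.8 and 16.2 CPM, had the widest interval on the log2 scale, −0.24 to 0.17, or 84.9% to 112% of the DOX- level (edgeR adjusted p = 0.905). These 3 genes lie side by side on the plus strand of chromosome 1 within 264 kb (GRCh38), in the order AGO4 (35808016 to 35857890), AGO1 (35869808 to 35930532) and AGO3 (35930718 to 36072500), with 185 bp between AGO1 and AGO3. AGO2 lies apart from them, on chromosome 8. Of the 100-base stretches of their canonical transcripts, 0% in AGO2, AGO3 and AGO4 and 2.18% in AGO1 occur in transcripts of another gene. The latter all lie in an antisense transcript, so these transcripts of the paralogs share no exact stretch of this length. How reads were assigned between neighbouring or related genes was not tested.

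Because the Argonautes share a pool of small RNAs, their make-up was also taken within each library from FPKM. AGO2 made up 45.57%, 47.16% and 45.72% of the summed Argonaute FPKM in DOX- libraries and 41.47%, 43.03% and 41.57% in DOX+ libraries. AGO4 made up 16.16%, 18.09% and 16.53% against 19.80%, 20.44% and 19.96%. For both genes the groups did not overlap, with mean differences of −4.12 and 3.14 percentage points (two-sided exact permutation p = 0.1 for each, the smallest possible). AGO1 held 27.27% to 28.83% in DOX- libraries and 28.25% to 29.81% in DOX+ libraries, and AGO3 held 7.49% to 9.78% and 8.28% to 9.20%. Taking counts per kb of canonical transcript in place of FPKM gave differences of −3.79 and 3.08 points for AGO2 and AGO4. The summed Argonaute FPKM was 9.52, 9.37 and 9.72 in DOX- libraries and 9.66, 9.76 and 9.53 in DOX+ libraries, so the groups overlapped (exact permutation p = 0.4). The sum of the 4 genes in CPM, which long transcripts weigh on more, was 140.2, 137.9 and 141.1 in DOX- libraries and 135.9, 136.3 and 135.3 in DOX+ libraries, without overlap (exact permutation p = 0.1). Shares of one sum are not independent of each other, and AGO2 and AGO4 are set beside each other here because of the values above.

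**Figure D3:**
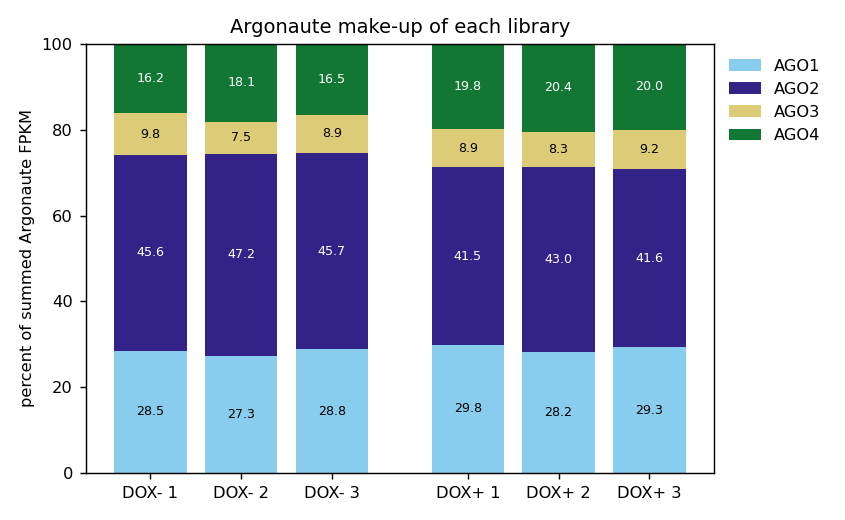
Share of each Argonaute in the summed Argonaute FPKM, in percent, for each of the 6 libraries. AGO2 is the largest share in every library, at 45.57% to 47.16% in DOX- and 41.47% to 43.03% in DOX+ libraries, and AGO4 is larger in each DOX+ library than in any DOX- library.

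Levels between genes can be compared only per length, and FPKM gives this. Over all 6 libraries PRKRA was the most abundant, at 21.2 ± 1.31 FPKM (SD, n = 6), which placed it above 78.9% of the features tested. Its level may include reads of CHROMR, with which PRKRA shares 44.5% of its 100-base stretches. TARBP2 followed at 12.8 ± 0.890 FPKM (SD, n = 6) and DROSHA at 11.6 ± 0.319 FPKM (SD, n = 6), and the ranges of these neighbours overlapped. DGCR8 was at 8.66 ± 0.445 FPKM (SD, n = 6). XPO5 was at 6.89 ± 0.323 FPKM (SD, n = 6) and DICER1 at 5.90 ± 0.514 FPKM (SD, n = 6), again with overlapping ranges. By FPKM, all 4 Argonautes lay below the 6 processing genes. That placement rests on whole transcript lengths, and only 17.7% of the 14.6 kb AGO2 transcript is coding. In CPM, AGO2 averaged 70.5 in DOX- and 64.1 in DOX+ libraries, against 63.3 and 61.9 for DROSHA and 61.8 and 65.2 for DICER1. AGO3 and AGO4 were lowest in CPM as well. Whether the full annotated transcripts are expressed in these cells was not tested. AGO2 was at 4.23 ± 0.208 FPKM (SD, n = 6), AGO1 at 2.75 ± 0.109 FPKM (SD, n = 6), AGO4 at 1.77 ± 0.186 FPKM (SD, n = 6) and AGO3 at 0.841 ± 0.0785 FPKM (SD, n = 6), with no overlap between neighbours. AGO3 was above 18.3% of the features tested. Counts per kb of canonical transcript put the 10 genes in the same order. They use the same counts and similar lengths, so this does not test the lengths behind the order.

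**Figure D4:**
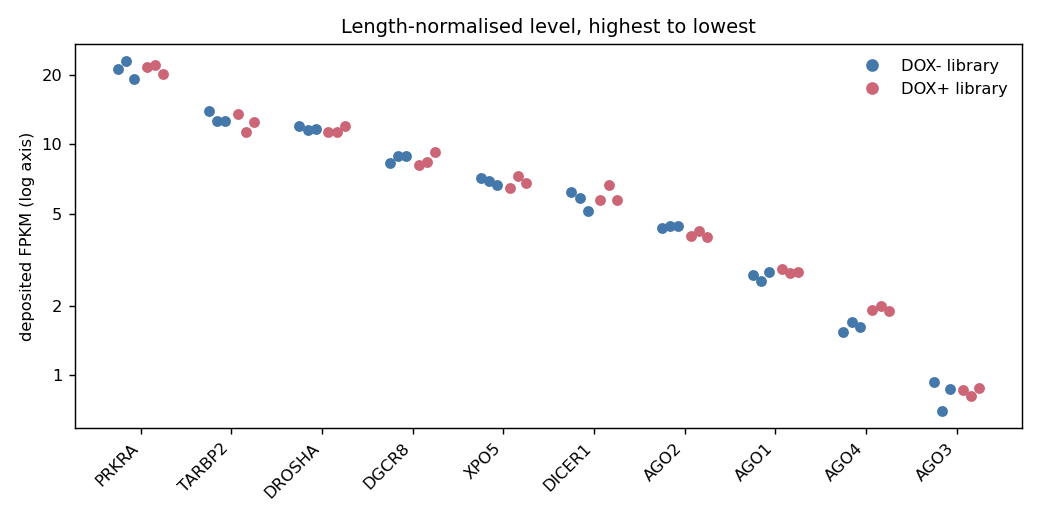
Deposited FPKM of each gene in each library on a log axis, ordered from the highest mean to the lowest. The ranges of TARBP2 and DROSHA, and of XPO5 and DICER1, overlap, and the 4 Argonautes lie at the low end, from 4.23 FPKM for AGO2 down to 0.841 FPKM for AGO3.

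In GRCh38, DROSHA lies at chr5:31400494-31532196 on the minus strand (36 exons in the canonical transcript) and DGCR8 at chr22:20080221-20111877 on the plus strand (14 exons). XPO5 lies at chr6:43522334-43576038 and DICER1 at chr14:95086228-95158010, both on the minus strand. TARBP2 lies at chr12:53500921-53506431 (plus) and PRKRA at chr2:178431292-178451512 (minus). AGO2 spans chr8:140520156-140635633 (minus). Canonical transcripts run from 1.51 kb (TARBP2) and 1.77 kb (PRKRA) over 10.38 kb (DICER1) to 13.71 kb (AGO1), 14.6 kb (AGO2) and 19.66 kb (AGO3), while the coding sequences of the Argonautes are all 2.57 to 2.58 kb. Only 13.1% of the AGO3 transcript and 35.5% of the AGO4 transcript is coding, against 76.1% for DROSHA. The length implied by the deposited counts and FPKM varied between libraries most for AGO3, from 15.87 to 21.61 kb, and its FPKM had a coefficient of variation of 14.2% in DOX- libraries where its CPM had one of 10.6%.

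Genes that work with the machinery were examined as 6 lists, of which 88 of 94 genes passed the filter. By edgeR's test 0 of the 88 were called, against 1.12% of all features, and 19 had an unadjusted p under 0.05, 10 higher and 9 lower, where 15.0% of all features did. Of the partners that DESeq2 gave an adjusted p, all but 8, it called 4 (DDX6 and LIMD1 higher, AJUBA and RANGAP1 lower), where it called 6.13% of all such features, and limma-voom called 0. By sign 49 were higher and 39 lower, around a median of 0.006 on the log2 scale. Groups did not overlap for 24 of the 88, where 20.3% of all features did not.

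Among 17 Microprocessor partners, the helicase DDX17 was at 273 to 277 CPM in DOX- and 285 to 299 CPM in DOX+ libraries (edgeR adjusted p = 0.290), and SRRT, which links the nuclear cap-binding complex to primary transcripts, was at 118 to 128 CPM and 111 to 117 CPM (edgeR adjusted p = 0.280). Neither overlapped between groups. Groups did not overlap for 4 of the 17, where they did not for 20.3% of all features. HNRNPA1 and HNRNPA2B1, the genes of this list with the highest CPM, had log2 fold changes of −0.046 and 0.004. The groups of HNRNPA1 did not overlap either, and those of HNRNPA2B1 did. For the export cycle, RAN, the GTPase that XPO5 needs to hold its cargo, was at 421 to 447 CPM without doxycycline and 431 to 436 CPM with it. RANGAP1, which activates hydrolysis by RAN in the cytoplasm, was at 328 to 345 CPM against 303 to 314 CPM (log2 fold change −0.12, edgeR adjusted p = 0.134), and RANBP2, a nuclear pore protein that works with RANGAP1, had a log2 fold change of 0.11.

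Of 18 genes that edit, tail, trim or degrade precursors, 16 passed the filter, and their log2 fold changes centred on 0.006. LIN28A and LIN28B, which block the maturation of let-7, were at 0 counts in all libraries. The editing enzyme ADAR was level, at 202 to 211 CPM and 202 to 208 CPM, and so was SND1, a nuclease of the silencing complex (log2 fold change −0.014). ADARB1 was at 41.0 to 42.9 CPM against 36.9 to 40.0 CPM (edgeR adjusted p = 0.316), and ERI1, an exonuclease, had a log2 fold change of 0.12 with overlapping groups. Among 13 chaperones used to load Argonautes, HSPA8 was at 1680 to 1700 CPM in DOX- libraries and 1720 to 1780 CPM in DOX+ libraries (log2 fold change 0.057, edgeR adjusted p = 0.247), HSP90AA1 had a log2 fold change of 0.041 and the HSP90 co-chaperone AHSA1 one of −0.092.

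The silencing effectors act after an Argonaute has found its target. Log2 fold changes of the 36 tested ran from −0.29 to 0.37 around a median of 0.021, and 13 did not overlap between groups, where 20.3% of all features did not. DDX6, a helicase of translational repression and decapping, was at 115, 111 and 114 CPM in DOX- libraries and at 131, 137 and 120 CPM in DOX+ libraries (log2 fold change 0.19, edgeR adjusted p = 0.0892). AJUBA, a LIM protein that binds Argonautes, was at 113, 112 and 115 CPM against 96.2, 97.0 and 106 CPM (log2 fold change −0.18, edgeR adjusted p = 0.0826). For each gene the groups did not overlap, and both genes passed an FDR of 0.05 with DESeq2, with no filter on low counts and without DOX+ replicate 3, AJUBA also with 2 further settings. PABPC1 and FXR1, with the highest mean log2 CPM of the list, had log2 fold changes of 0.013 and 0.047. TRIM71 was at 0 counts in all libraries. In the germline PIWI clade, PIWIL1 and PIWIL3 were at 0 counts, PIWIL2 had at most 4 and PIWIL4 had 17 to 52, with overlapping groups.

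**Figure D5:**
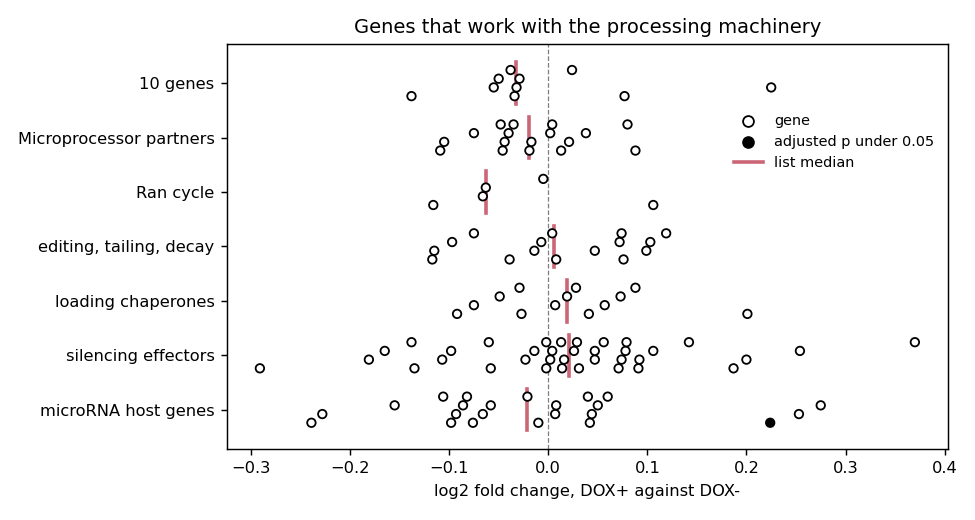
Log2 fold change of DOX+ against DOX- libraries for the 10 genes, 5 lists of genes that work with them and microRNA host genes; circles are genes that passed the filter (filled where the edgeR adjusted p is under 0.05) and red bars are list medians. LPP is the 1 filled point, and list medians lie between −0.063 and 0.021.

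Protein-coding genes that host microRNAs provide part of the substrate of this machinery. Of 23 such host genes, 1 was called higher and 0 lower by edgeR's test, where 1.12% of all features were called. LPP, which encodes a focal adhesion protein and hosts miR-28, rose from 140, 137 and 136 CPM to 162, 161 and 159 CPM (log2 fold change 0.22, standard error 0.0364, edgeR adjusted p = 0.00736). The call was lost without DOX+ replicate 1, with an edgeR adjusted p of 0.0779, and kept in each other fit. The mature 3p arm lies in an LPP intron at chr3:188688834-188688855 (RefSeq, GRCh38.p14, plus strand) and is given with its seed in capitals.
hsa-miR-28-3p: cACUAGAUugugagcuccugga
NFYC, which hosts miR-30e and miR-30c-1, was at 37.9, 37.5 and 38.6 CPM in DOX- libraries and at 32.9, 30.3 and 34.3 CPM in DOX+ libraries (log2 fold change −0.23, edgeR adjusted p = 0.0807). NFYC was called lower by DESeq2 (adjusted p = 0.0425) and with the GC trend removed (edgeR adjusted p = 0.0490). CTDSP2 had a log2 fold change of −0.098 and HNRNPK, the host with the highest CPM, one of 0.008. The host list had a median log2 fold change of −0.021, with 10 genes higher and 13 lower. Its 7 genes with an unadjusted p under 0.05 stand beside the 15.0% of all features.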

How the data were processed

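RNA from 6 IMR-90 libraries (3 DOX-, 3 DOX+) was analysed. As the study's methods state, filtered reads were mapped with HISAT2 (GRCh38) before StringTie was run; versions, annotation and counting step are not given in the sources used here. The authors deposited a whole-number count without normalization and an FPKM value for each feature and library. The table has 23754 features, 3780 of them unannotated loci, after 17 stray lines were dropped. The library kit does not mark strand, so overlapping antisense genes can share counts.

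Counts were tested with edgeR 4.0.16 in R 4.3.3 (filterByExpr with a minimum count of 10, TMM, quasi-likelihood test, no covariates, Benjamini-Hochberg over 13991 features). The standard error was taken from the estimate and its F statistic, and 95% intervals use the t quantile of the moderated degrees of freedom. They cover the spread between libraries only. FPKM gave levels, shares and ratios; permutation tests are exact and two-sided. GENCODE 44 gave loci and lengths and RefSeq the microRNA sequences. The printed microRNAs were taken by position, within the canonical transcript span of the host gene and on its strand. miR-28-5p is named only.

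The members and lists were chosen with earlier results of these data known. Named partners are those past an FDR of 0.05, the 2 with the smallest p and the 2 with the highest mean log2 CPM, which does not correct for length, of each list; LIMD1, LIN28A, LIN28B, TRIM71 and the other PIWI genes were added once their values had been seen. Of the 20 noncoding microRNA hosts listed, 0 were found by symbol among the features, so they were not analysed here. Alternatives were other scalings, filters and thresholds, DESeq2 1.42.0, limma-voom (limma 3.58.1), leaving out each library, the replicate block, and length or GC trends (lowess, span 0.3). Level order and fold change from FPKM or counts per kb were added after seeing the data. Replicate numbers did not pair the libraries (correlations of same-numbered deviations −0.0352 to 0.0363).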

Additional observations from a re-analysis of the deposited data

How the results depend on the processing

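Of the 10 genes, 0 were called in 16 of 17 alternative fits; the exception was AGO2, lower once the length trend was removed, which leaves 1 member called lower. An unadjusted p under 0.05 gave 1 higher and 1 lower. DROSHA, DGCR8, XPO5, DICER1, AGO2 and AGO4 kept the direction of their difference in every setting that gave a value. The others are near 0 and changed sign in places: TARBP2 with the GC trend removed (0.021) or the length trend removed (0.003), PRKRA with the length trend removed (0.007) or by FPKM (0.012), AGO1 with the length trend removed (−0.027) and AGO3 by FPKM (0.026). With one library left out, log2 fold changes ran from −0.071 to 0.023 for TARBP2, −0.082 to 0.040 for PRKRA, −0.015 to 0.063 for AGO1 and −0.103 to 0.049 for AGO3. The AGO3 share difference was −0.102 points by counts per kb and −0.553 to 0.591 with one library left out, and the difference in the log2 ratio of DROSHA to DGCR8 0.024 and −0.040 to 0.032.

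Among partners, DESeq2 called 2 higher and 2 lower, no filter 1 and 1, an unadjusted p 10 and 9, and the GC trend removed 1 lower; one library left out gave 0 to 1 in each direction. Among host genes, an unadjusted p gave 3 higher and 4 lower, DESeq2 and the GC trend removed each 1 lower (NFYC), and requiring an absolute log2 fold change over 1 left 0 higher; one library left out gave 0 to 1 higher. The cause of these moves was not tested. With the replicate block, 0 members and 1 partner (AJUBA, lower) were called, and over all features 292 in place of 156; the numbers do not pair the libraries. Over all features, DESeq2 called 479, no filter 290 and the GC trend removed 290, and one library left out gave 74 to 161. Library size scaling, which moved the median of all features to 0.019, called 88 higher and 77 lower, against 56 and 100.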
